A study of Rattus norvegicus with 15 samples.

Results

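Metallothioneins are small, cysteine-rich proteins that bind zinc and copper, and Mtf1 is the zinc finger transcription factor that senses free zinc and turns their genes on. The genes described here are Mt1 and Mt2A, the widely expressed metallothioneins, and Mtf1, in the rat line Odora, an established line whose labels call it an olfactory neuron, kept with or without the salt zinc gluconate. They were found by matching the rat Entrez gene identifiers of the count table to these symbols, and are 3 of 16832 identifiers. All 3 passed the filter on low counts that left 10575 genes for testing.

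The 15 libraries formed 5 groups of 3, all made from undifferentiated Odora cells. The control group had no zinc and no time stated. Zinc gluconate at 100 µM was applied for 6, 12 or 24 h in 3 groups, and at 200 µM for 6 h in 1 group. Nothing in the labels says that the 3 libraries of a group came from separate cultures, so the p-values measure only the spread between these libraries, which may be technical. In bulk RNA, fewer cells that express a gene and less of its RNA per cell cannot be told apart.

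In mammalian cells most zinc is bound to proteins, and metallothioneins take up the surplus when free zinc rises. Mtf1 is activated by zinc binding to its own zinc fingers, after which it enters the nucleus and binds metal response elements, short DNA motifs in the promoters of metallothionein genes and of the zinc exporter gene Slc30a1. Its activity is therefore set mainly at the protein level, which a count of its transcript does not measure. Zinc salts put into the nose are known to harm olfactory neurons in rodents.

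The promoter windows of the 3 genes are shown because the metal response element is the motif through which Mtf1 acts. They are from RefSeq, assembly GRCr8, and run from 250 bases before to 50 bases after the annotated start, 5′ to 3′ on the strand of the gene. Mt1 stands at chr19:10832926-10833225 on the minus strand, Mt2A at chr19:10838659-10838958 on the minus strand and Mtf1 at chr5:142346804-142347103 on the plus strand. Capitals mark each match to the core of the metal response element, TGCACNC or TGCGCNC, on either strand.
Mt1: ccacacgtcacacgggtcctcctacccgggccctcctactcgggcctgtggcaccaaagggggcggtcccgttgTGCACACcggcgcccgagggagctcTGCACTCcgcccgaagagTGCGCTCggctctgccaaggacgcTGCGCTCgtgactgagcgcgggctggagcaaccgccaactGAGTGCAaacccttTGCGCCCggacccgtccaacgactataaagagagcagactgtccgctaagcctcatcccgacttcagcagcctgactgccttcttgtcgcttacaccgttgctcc
Mt2A: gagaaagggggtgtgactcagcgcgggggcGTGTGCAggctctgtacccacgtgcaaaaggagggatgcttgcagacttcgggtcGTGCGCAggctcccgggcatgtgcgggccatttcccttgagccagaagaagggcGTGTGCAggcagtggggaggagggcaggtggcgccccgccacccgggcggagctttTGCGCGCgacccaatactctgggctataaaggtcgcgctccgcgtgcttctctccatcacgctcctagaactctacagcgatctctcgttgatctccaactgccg
Mtf1: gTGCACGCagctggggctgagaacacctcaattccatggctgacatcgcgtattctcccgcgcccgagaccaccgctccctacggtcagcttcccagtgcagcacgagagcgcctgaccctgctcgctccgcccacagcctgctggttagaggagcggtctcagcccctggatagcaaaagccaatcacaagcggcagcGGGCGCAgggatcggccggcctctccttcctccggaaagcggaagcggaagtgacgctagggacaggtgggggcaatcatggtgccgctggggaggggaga

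The Mt1 window held 6 matches to the core, 3 of the form TGCACNC and 3 of the form TGCGCNC. The Mt2A window held 4 matches, and the Mtf1 window 2. Among 33469 rat promoter windows of the same length, 24.2% held at least 1 match, 6.36% at least 2, 0.439% at least 4 and 0.0388% at least 6. In both Mt1 and Mt2A a match on the strand of the gene lay at -55 to -49 from the start, followed by a TATAAA, the core of the TATA box, which 14.2% of all windows held. The windows of Mt3 and Mt4, the other metallothionein genes of the same cluster, held 3 matches and 1 match, and that of Slc30a1 held 2. TGACNNNGC, the core of the antioxidant response element bound by Nfe2l2, was found once in Mt1, once in Mt2A and 2 times in Mtf1, against 12.1% of all windows with at least 1. GGGCGG, the GC box bound by Sp1, was found 2 times in Mt1 and once in each of the others (33.1% of windows). CACGTG, the E box of the USF factors, was found once in Mt2A only (6.42% of windows), and the heat shock element core GAANNTTC in none of the 3 (8.59% of windows). Both strands were searched. In Mt1 the metal response element match at -151 to -145 shared a base with the GC box at -145 to -140. A match is a description of letters, not a bound site.

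**Figure D1:**
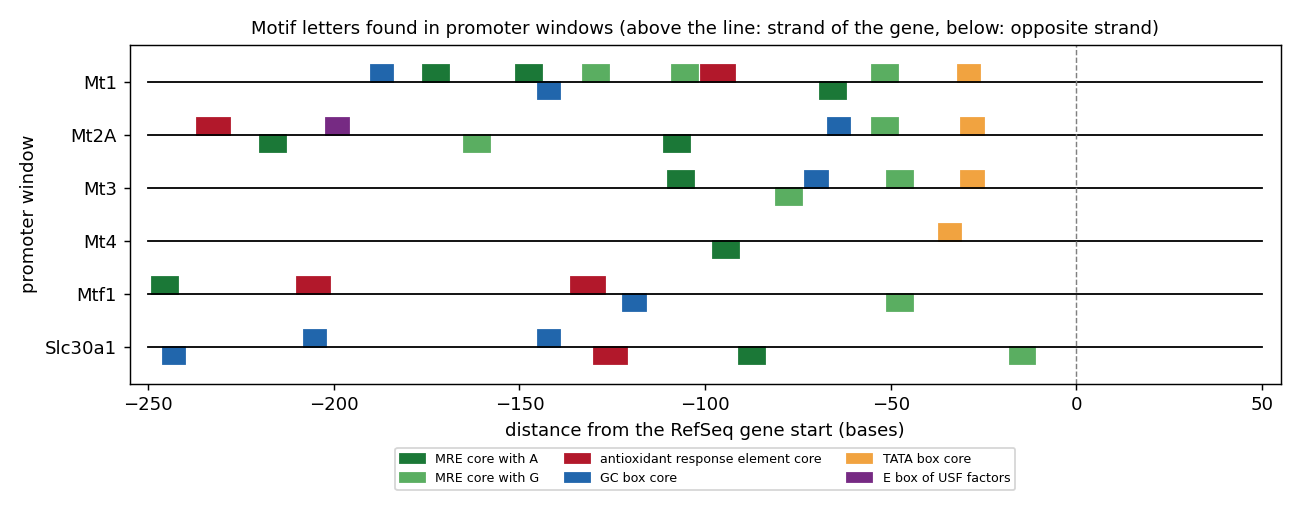
Matches to short motifs in promoter windows, as distance from the RefSeq gene start in bases (x axis), with 1 line per gene, boxes above the line for the strand of the gene and below it for the opposite strand. Mt1 has 6 metal response element matches (both greens), Mt2A 4 and Mtf1 2, and the TATA box core lies near the start in Mt1 and Mt2A and is not in the Mtf1 window.

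The libraries held 10.3 to 35.2 M counts each (M, mega). Libraries of the 24 h label (100 µM) and of the 200 µM label (6 h) were nearly alike in 3 pairs: 24 h library 1 with 200 µM library 3, the libraries numbered 2 with each other, and 24 h library 3 with 200 µM library 1. The chi-square per degree of freedom between the counts of such a pair was 1.36 to 1.42, against 3.50 or more between libraries of the same label and 3.33 or more between other libraries across the labels. By edgeR's quasi-likelihood test 0% of the 10575 genes were higher and 0% lower between these labels, with 69 at an unadjusted p under 0.05. DESeq2 and limma-voom also called 0 genes, with 31 and 61 at an unadjusted p under 0.05. Each of these counts is a smaller share of the genes than the 0.05 that chance gives between independent groups. Dose and time under these labels therefore cannot be told apart. Whether a label is wrong, or both labels hold the same RNA, was not tested. The log2 ratios of Mt1, Mt2A and Mtf1 are also given with the pairs summed into 3 libraries. So are the share of counts held by Mt1 and Mt2A and the counts over gene lists. Levels are in CPM, counts scaled to a megacount of library total multiplied by the library's TMM factor, the scaling factor of edgeR. Heart muscle transcripts (6 genes, summed) stood at 106, 26.7 and 107 CPM in the controls. They stood at 49.4 CPM in library 1 of 6 h, against 0.156 to 0.608 CPM in the other 11. The 9 olfactory neuron markers listed summed to 127 to 150 CPM. Of these, Cnga2, Gap43 and Stmn2 were at 0 in every library and Omp, the marker of mature olfactory neurons, had 2 to 11 counts. Most of the sum came from Ncam1 (group means of 87.2 to 101 CPM), Adcy3 (21.2 to 24.9) and Tubb3 (16.7 to 22.9). A list of 5 fibroblast markers summed to 5500 to 8780 CPM, most of it from the collagens Col1a1, Col3a1 and Col1a2, while Dcn had group means of 0.482 to 2.17 CPM and Pdgfra of 5.18 to 21.1 CPM. The part of the heart transcripts in the results below was not tested. Some results are also given from a fit with a term for the 4 libraries that hold them. Only library 1 of 6 h separates this term from the control group. With it the median standard error over all genes at 12 h against control was 0.167 against 0.094. A call lost with the term therefore cannot be assigned to the heart transcripts.

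Mt1, which binds zinc in most tissues and is the metallothionein most often used as a readout of zinc exposure, rose in all 4 zinc groups. Its level in CPM, scaled to each library's total by the TMM factors, was 48.8, 49.2 and 36.8 in control libraries 1 to 3. At 100 µM it was 1439, 1479 and 1340 after 6 h and 1696, 1370 and 1255 after 12 h. Under the 24 h label it was 514, 688 and 512, and under the 200 µM label 543, 685 and 526. Every zinc library stood above every control, the 6 h and 12 h libraries were highest and overlapped, and the libraries of both other labels lay between them and the controls.

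Against control, Mt1 was 31.6-fold higher after 6 h at 100 µM, a log2 ratio of 4.98 ± 0.17 (standard error, 3 libraries a group; adjusted p = 1.03e-11). After 12 h the log2 ratio was 5.00 ± 0.17 (adjusted p = 1.47e-11). It was 3.67 ± 0.16 under the 24 h label and 3.70 ± 0.16 under the 200 µM label, 12.7-fold and 13-fold higher than control. Of all tested genes 9.1% rose and 8.1% fell at 6 h, 3.36% rose and 2.97% fell at 12 h, 29.7% rose and 31.3% fell under the 24 h label, and 29.4% rose and 31.1% fell under the 200 µM label. A rise alone was therefore common under the last 2 labels, where Mt1 ranked 53rd and 55th by log2 ratio among 10575 genes, while it ranked 1st at 6 h and at 12 h. Just below it stood Hmox1 at 6 h, with a log2 ratio of 4.34, and Mt2A at 12 h.

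Mt2A, the other widely expressed metallothionein, rose in the same 4 groups. Its level was 88.0, 79.8 and 65.2 CPM in the controls. At 100 µM it was 1203, 1265 and 1118 CPM after 6 h and 1800.0, 1728 and 1517 CPM after 12 h. Under the 24 h label it was 425, 524 and 418 CPM, and under the 200 µM label 422, 521 and 445 CPM. All 12 zinc libraries were above the controls, the 12 h libraries were all above the 6 h libraries, and the 24 h and 200 µM labels overlapped each other.

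The log2 ratio of Mt2A to control was 3.94 ± 0.13 after 6 h (15.4-fold; adjusted p = 1.02e-12) and 4.44 ± 0.13 after 12 h (21.7-fold; adjusted p = 4.15e-13). It was 2.55 ± 0.12 under the 24 h label and 2.58 ± 0.12 under the 200 µM label, 5.87-fold and 5.96-fold higher. Mt2A ranked 3rd at 6 h and 2nd at 12 h by log2 ratio, and 141st and 136th under the 24 h and 200 µM labels. At 6 h the next gene down was Bpifb1, whose adjusted p was 0.0255. It had 0 counts in every control and 4, 0 and 1 counts at 6 h, so its rank rests on few reads. The order by log2 ratio includes such genes with low counts. Mt1 and Mt2A are close paralogs, and the sources used here do not say how reads matching both were counted. Each may therefore hold reads of the other, which also bears on their ratio below.

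**Figure D2:**
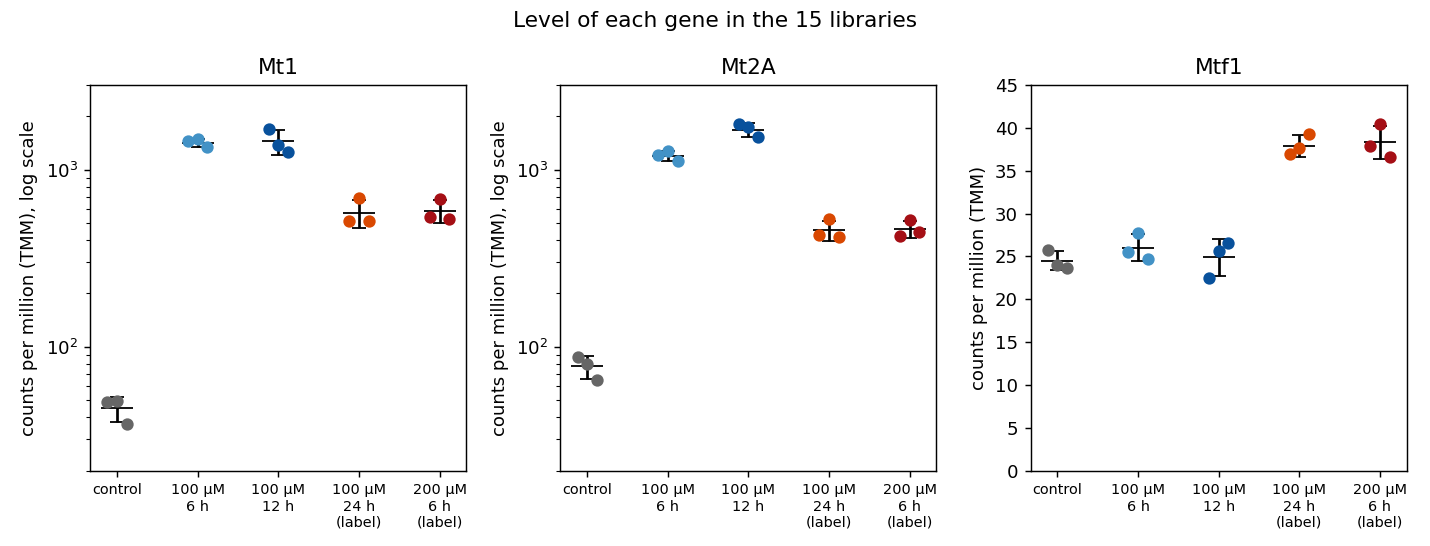
Level of Mt1, Mt2A and Mtf1 in CPM (y axis, log scale for Mt1 and Mt2A, linear from 0 for Mtf1) in each of the 15 libraries by group (x axis); points are libraries, lines the mean and SD of 3. Mt1 and Mt2A are highest after 6 h and 12 h at 100 µM, and Mtf1 is highest under the 24 h and 200 µM labels.

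Between times and doses, both metallothioneins were lower under the labels of longest time and highest dose. Those labels hold the close pairs, so the comparisons that follow are not independent of each other. None of them is read as an effect of time or of dose. At 24 h against 12 h Mt1 fell by 1.33 ± 0.14 on the log2 scale (2.52-fold lower; adjusted p = 7.47e-07) and Mt2A fell by 1.88 ± 0.11 (3.69-fold lower; adjusted p = 3.01e-10), where 26.9% of genes rose and 27.6% fell. At 6 h, 200 µM against 100 µM, Mt1 fell by 1.28 ± 0.14 (2.43-fold lower; adjusted p = 1.29e-06) and Mt2A fell by 1.37 ± 0.11 (2.58-fold lower; adjusted p = 1.75e-08), where 26.5% of genes rose and 27.1% fell. At 24 h against 6 h Mt1 fell by 1.31 ± 0.14 and Mt2A fell by 1.39 ± 0.11, where 27% of genes rose and 27.3% fell. The libraries did not overlap in any of these comparisons. With the pairs of the 24 h and 200 µM labels summed, the Mt1 log2 ratio was 3.68 ± 0.14 to control, -1.32 ± 0.13 to 12 h and -1.30 ± 0.13 to 6 h, and that of Mt2A 2.56 ± 0.11, -1.87 ± 0.11 and -1.38 ± 0.11.

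Between 6 h and 12 h at 100 µM Mt1 had a log2 ratio of 0.02 ± 0.14 (adjusted p = 0.976) and Mt2A one of 0.49 ± 0.11 (1.41-fold; adjusted p = 0.0420), in a comparison where 0.482% of genes rose and 0.492% fell. The call on Mt2A was lost without library 1, 2 or 3 of 6 h or library 1 or 2 of 12 h, with log2 ratios of 0.44 to 0.53 and adjusted p of 0.0716 to 0.196. It was also lost when the 4 libraries holding heart transcripts were given a term (adjusted p = 0.179), and over all settings the adjusted p ran from 0.00127 to 0.196. The order of mean levels was the same for both genes: control, 24 h label, 200 µM label, 6 h and 12 h, rising. Of its neighbours, the 24 h and 200 µM labels did not differ beyond their spread for either gene, with log2 ratios of 0.03 ± 0.14 for Mt1 and 0.02 ± 0.11 for Mt2A, nor did 6 h and 12 h for Mt1. The steps from control to the 24 h label and from the 200 µM label to 6 h passed the test for both genes.

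The ratio of Mt1 to Mt2A counts within a library, in which depth and scaling cancel, was above 1 in 3 of the zinc groups and lowest in the controls. It was 0.554, 0.617 and 0.565 in the controls. It was 1.20, 1.17 and 1.20 after 6 h and 0.942, 0.793 and 0.827 after 12 h. Under the 24 h label it was 1.21, 1.31 and 1.23, and under the 200 µM label 1.29, 1.31 and 1.18. Mt2A thus had more counts than Mt1 in every control and every 12 h library, and Mt1 had more in every other library. The ratio compares counts and is not per transcript length, so it shows unequal change and not which transcript was the more abundant.

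On the log2 scale the mean ratio was -0.79 ± 0.08 (SD, n = 3) in the controls and 0.25 ± 0.02 after 6 h, a difference of 1.04. It was -0.23 ± 0.13 after 12 h, 0.48 below the 6 h value and 0.56 above the control value. Each of these 3 differences gave p = 0.1 in the exact two-sided permutation test over libraries, the smallest p that 3 against 3 allows. The 24 h and 200 µM labels stood at 0.32 ± 0.06 and 0.33 ± 0.08, each with p = 0.1 in the exact test against control and against 12 h, and with p = 0.9 between them. Against 6 h at 100 µM the 200 µM label differed by 0.08 (exact p = 0.3, with overlap), and the 24 h label by 0.07 (exact p = 0.1). In all, 10 pairs of groups were compared and none can pass 0.05.

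Both metallothioneins together held 0.0137% ± 0.00209 (SD, n = 3) of all counts in the controls. They held 0.287% ± 0.0191 after 6 h and 0.339% ± 0.0345 after 12 h. Under the 24 h and 200 µM labels they held 0.0886% ± 0.0128 and 0.0905% ± 0.0111, and 0.0895% ± 0.012 with the pairs summed, a setting chosen after seeing the data, in which the ratio of Mt1 to Mt2A was 1.2, 1.31 and 1.25. In single libraries the share ran from 0.0114% (control library 3; exact binomial 95% interval 0.0110 to 0.0118%) to 0.374% (12 h library 1; 0.371 to 0.377%). These intervals cover counting error only and are narrower than the spread between the libraries of a group.

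**Figure D3:**
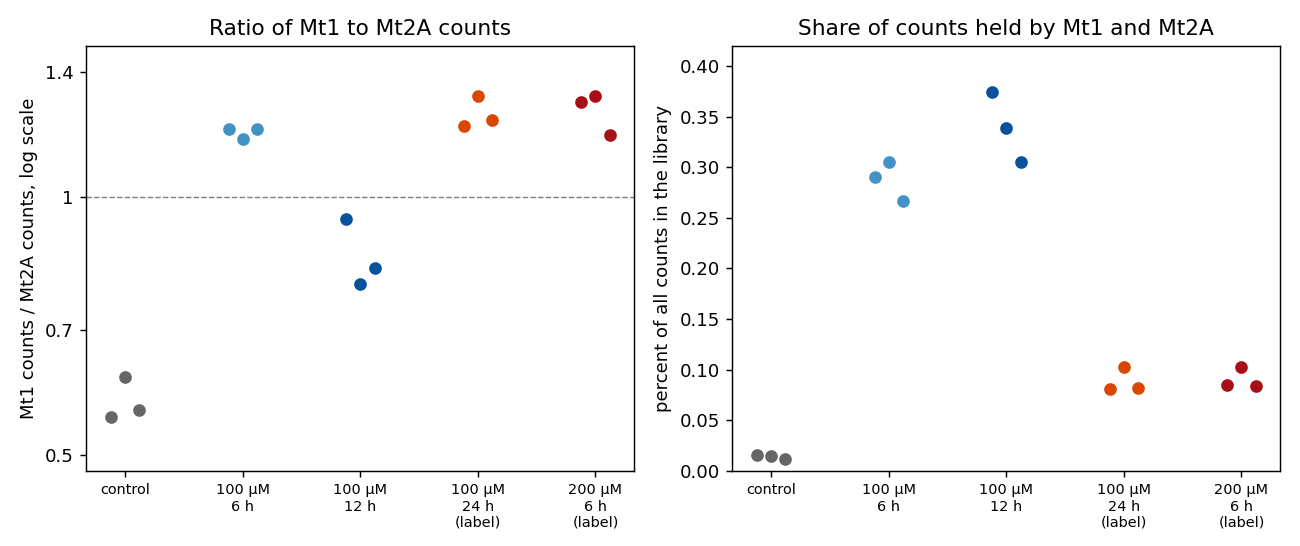
Left, the ratio of Mt1 to Mt2A counts in each of the 15 libraries (y axis, log scale; dashed line at equal counts); right, the percent of all counts held by both genes together (y axis), by group (x axis), 1 point per library. Controls and 12 h libraries lie below equal counts and all others above it, and the share is highest after 12 h, with a mean of 0.339%.

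The other metallothionein genes of the cluster were close to silent in every group. Mt3, the brain metallothionein, had 0 to 2 counts in a library, with 1 count in each of the 12 h libraries. Mt4, the metallothionein of stratified epithelium, had 1 count in 2 of the libraries labelled 200 µM and 0 in the other 13. No Mt3 or Mt4 library reached 3 counts, taken as the detection floor, which is 0.0778 to 0.261 CPM here. Neither gene passed the filter, and no fold is given. Mt1m was not analysed here.

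Mtf1, the sensor, was not called against control after 6 h or 12 h, when the metallothioneins were highest, and rose under the 24 h and 200 µM labels. Its level was 25.8, 24.0 and 23.7 CPM in the controls. At 100 µM it was 25.5, 27.7 and 24.7 CPM after 6 h and 22.5, 25.6 and 26.6 CPM after 12 h. Under the 24 h label it was 36.9, 37.6 and 39.3 CPM, and under the 200 µM label 37.9, 40.5 and 36.6 CPM. The control, 6 h and 12 h libraries overlapped, and the 6 libraries of the last 2 labels stood above all others. These 6 form the close pairs described above and do not count as 6 independent observations.

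The log2 ratio of Mtf1 to control was 0.08 ± 0.08 after 6 h (adjusted p = 0.513) and 0.03 ± 0.08 after 12 h (adjusted p = 0.904). It was 0.63 ± 0.08 under the 24 h label (1.55-fold; adjusted p = 8.61e-07) and 0.65 ± 0.08 under the 200 µM label (1.57-fold; adjusted p = 7.61e-07). Mtf1 also rose at 24 h against 12 h, by 0.61 ± 0.08 (adjusted p = 3.10e-06), and at 200 µM against 100 µM, by 0.57 ± 0.08 (adjusted p = 7.09e-06). Both comparisons rest on the close pairs and are not independent of each other. The order of its mean levels was control, 12 h, 6 h, 24 h label and 200 µM label, and of these neighbours only 6 h and the 24 h label differed beyond their spread, with a log2 ratio of 0.55 ± 0.08 (adjusted p = 8.44e-06). With the pairs summed, Mtf1 had a log2 ratio of 0.64 ± 0.08 to control, 0.61 ± 0.08 to 12 h and 0.56 ± 0.08 to 6 h. The rise of Mtf1 depended in size on the scaling: with library totals alone it was 0.26 under the 24 h label and 0.27 under the 200 µM label, still called, while the median of all genes moved to -0.40 under both. Relative to the median of all genes, Mtf1 was 0.66 and 0.67 higher under these labels with totals alone, and 0.65 and 0.67 higher with TMM. A scaling factor moves all genes alike, so these values had to match and are no check on the rise. Under totals alone, 16.2% and 16.0% of the called genes were higher under these labels, against 48.7% and 48.5% with TMM.

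**Figure D4:**
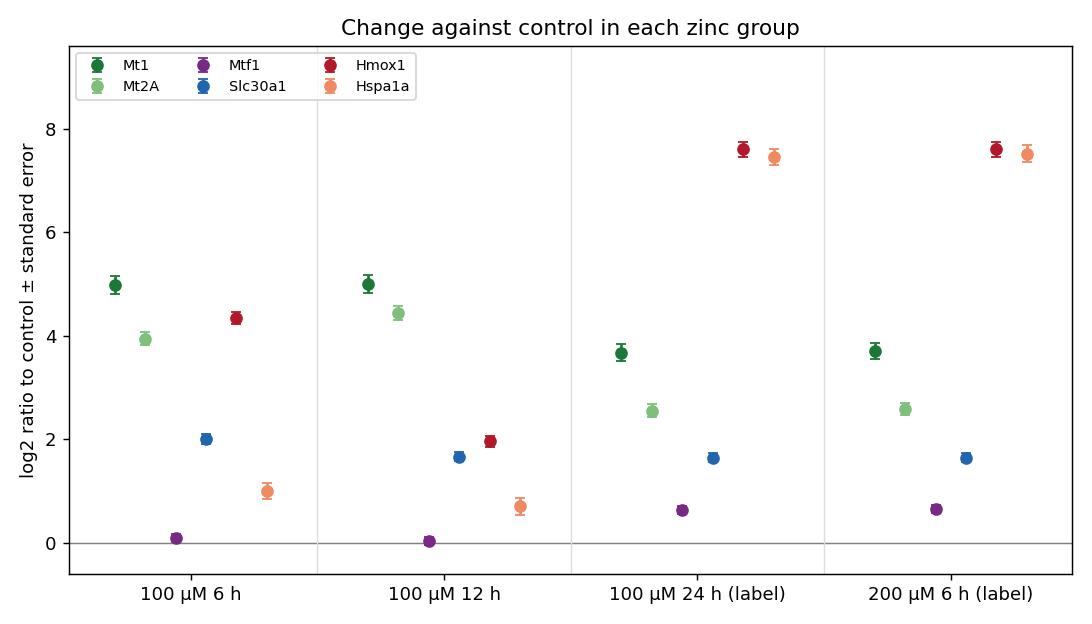
Log2 ratio to control (y axis) in the 4 zinc groups (x axis) for Mt1, Mt2A and Mtf1, with Slc30a1, Hmox1 and Hspa1a for comparison; points are the edgeR estimates and bars the standard error, 3 libraries a group. Of the 6 genes plotted Mt1 is highest at 6 h and 12 h, Mt2A is below Hmox1 at 6 h and above it at 12 h, and both lie below Hmox1 and Hspa1a under the 24 h and 200 µM labels, where Mtf1 is at 0.63 and 0.65.

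Other genes known as Mtf1 targets in mouse or human had log2 ratios below those of Mt1 and Mt2A in all 4 zinc groups. Of 10 listed, 8 were tested: 4 rose after 6 h and 3 after 12 h, and 7 rose under each of the 24 h and 200 µM labels and with the pairs summed, with none lower. Over all genes 9.1%, 3.36%, 29.7% and 29.4% rose in these comparisons. Among the 7 under the 24 h label was Pgf, a growth factor, with a log2 ratio of 0.64 ± 0.27. Its call was lost without control library 1, with DESeq2 and with library totals alone. Their median log2 ratio was 0.36, 0.28, 0.71 and 0.95 in that order, against -0.02 to 0 over all genes. With library totals alone 4 and 5 of the 8 rose under the 24 h and 200 µM labels, and with the heart transcript term 3, 1, 6 and 6 rose in the 4 groups.

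Slc30a1, which exports zinc from the cell, stood at 22.2, 20.9 and 23.9 CPM in the controls and 98.9, 80.3 and 86.7 CPM after 6 h, with no overlap. Its log2 ratio to control was 2.0 ± 0.09 after 6 h and 1.66 ± 0.09 after 12 h, and 1.64 ± 0.09 under both other labels. At 24 h against 12 h its log2 ratio was -0.02 ± 0.08 (adjusted p = 0.856), or -0.35 and called with library totals alone, and at 200 µM against 100 µM it fell by 0.35 ± 0.08. Slc40a1, the iron exporter, rose by 1.16 ± 0.22 at 6 h and by 2.07 ± 0.21 under the 24 h label. Gclc, the catalytic subunit of the enzyme that starts glutathione synthesis, rose by 0.41 ± 0.06 at 6 h, and Csrp1, a LIM domain protein, by 0.78 ± 0.08 under the 24 h label.

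Of the factors known to act at metallothionein promoters, Mtf1 included, 8 of 9 were tested. After 6 h 1 rose and 1 fell, after 12 h none rose and 1 fell, and under each of the 24 h and 200 µM labels 3 rose and 3 fell, with medians of 0.09, 0.02, 0.04 and 0.02. Over all genes 29.7% rose and 31.3% fell under the 24 h label and 29.4% and 31.1% under the 200 µM label, so these counts are near the background and are no result about the factors. The counts were the same with the pairs summed, and with library totals alone 2 rose and 5 fell under each of these labels, Nfe2l2 among those that fell (-0.26 under the 24 h label; adjusted p = 0.00474). Nfe2l2, which binds antioxidant response elements, was the factor that fell at both early times, by 0.77 ± 0.07 at 6 h and by 0.58 ± 0.07 at 12 h, the latter call being lost with the heart transcript term. Under the 24 h label Crebbp, a coactivator, rose by 0.63 ± 0.09, and Stat3 by 0.46 ± 0.06, a call lost with library totals alone. Usf1 fell by 0.35 ± 0.07 there, while its higher level at 6 h was a call lost without control library 1 and with library totals alone. The other 2 that fell, Sp1 and Nr3c1, lost their calls with the heart transcript term.

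Among 8 genes of copper handling, the other metal of metallothioneins, none was called after 6 h and 1 rose after 12 h. Under the 24 h label 5 rose and 1 fell, under the 200 µM label 4 and 1, and with the pairs summed 5 and 1. Their medians were -0.01, -0.05, 0.31 and 0.28 in the 4 zinc groups. Over all genes 9.1% rose and 8.1% fell after 6 h, and 3.36% rose and 2.97% fell after 12 h. Under the 24 h label 29.7% rose and 31.3% fell, and under the 200 µM label 29.4% and 31.1%. The medians over all genes were -0.02 to 0. These values over all genes also stand beside the lists that follow. Slc31a1, the copper importer, rose by 0.71 ± 0.06 under the 24 h label, and with library totals alone 1 gene of the list rose and 2 fell there, and 1 rose and 3 fell under the 200 µM label. The gene that rose after 12 h, Sod1, and the gene that fell, Slc31a2, each lost that call with the heart transcript term. Of 5 tested genes of glutathione synthesis and recycling, 4 rose in each zinc group and 1 fell after 12 h, with medians of 0.41, 0.30, 0.50 and 0.47, and none was called after 12 h with the heart transcript term. With library totals alone 2 rose after 12 h and 2 under each of the 24 h and 200 µM labels, and with the pairs summed 4 rose. Of 5 oxidant and metal response genes outside the metallothioneins, all rose at 6 h, under the 24 h and 200 µM labels and with the pairs summed, and 4 at 12 h, with medians of 0.94, 0.70, 3.83 and 3.85. At 12 h the calls on Srxn1 and Hspa1a were lost without control library 1. Hmox1, which breaks down haem, had a mean of 43.3 ± 4.68 CPM in the controls, 876 ± 127 after 6 h, 169 ± 15.9 after 12 h and 8414 ± 712 under the 24 h label, so its order over these groups was not that of Mt1 and Mt2A.

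The genes next to the members were looked up in the RefSeq gene table. Mt1, Mt2A, Mt3 and Mt4 stood side by side with no other gene between them. On either side of this cluster, Nup93, a nuclear pore protein, had a log2 ratio of 0.05 ± 0.05 to control after 6 h, and Bbs2, of the ciliary BBSome, one of -0.27 ± 0.07, a call lost without library 1 of 6 h and with the heart transcript term. Herpud1, an endoplasmic reticulum stress gene further out, fell by 1.07 ± 0.14 at 6 h and rose by 2.32 ± 0.14 under the 24 h label. Next to Mtf1, Inpp5b, a phosphatase, fell by 0.59 ± 0.06 at 6 h and 0.58 ± 0.06 under the 24 h label, and C5h1orf122, on the other side, rose by 0.50 ± 0.08 under the 24 h label, a call lost with library totals alone. Fhl3, a LIM domain protein, rose by 1.85 ± 0.09 there.

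The genes whose levels followed each member most closely were ranked by Pearson's r of log2 CPM over the 15 libraries, among 9935 genes. The libraries fall into groups, share depth differences and include the 3 close pairs, so r is a description. For Mt1 they were Ptgr1 (r = 0.982), Mt2A (0.981), Slc30a1 (0.952), Pygl (0.951) and P4ha2 (0.947). Spearman's rho with Mt1 was 0.682 for Slc30a1 and 0.732 for P4ha2, against 0.879 or more for the others. Both had a log2 ratio of -0.02 at 24 h against 12 h, where Mt1 had -1.33. For Mt2A they were Mt1 (0.981), Ptgr1 (0.968), Pygl (0.938), Fam162a (0.915) and Pfkl (0.891). Ptgr1, a reductase of reactive aldehydes, had a mean of 149 ± 6.80 CPM in the controls, 296 ± 14.8 after 6 h and 325 ± 32.2 after 12 h, and 257 ± 9.12 under the 24 h label, the same order as Mt1 over a narrower range.

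For Mtf1 they were Zbtb24 (r = 0.983), Gata3 (0.982), Zfp668 (0.981), Bcl6 (0.981) and Ficd (0.980). Bcl6, a transcriptional repressor, had a mean of 39.5 ± 5.26 CPM in the controls, 39.3 ± 3.02 after 6 h and 130 ± 5.98 under the 24 h label. By Spearman's rho, 3 of the 5 genes were shared for Mt1, 4 for Mt2A and 0 for Mtf1, so the genes nearest to Mtf1 rest on the measure used. Without the libraries of the 24 h label 5, 4 and 4 were shared. No list of genes near Mtf1 held a metallothionein, and neither list of a metallothionein held Mtf1.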

How the data were processed

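RNA sequencing of 15 libraries of Odora cells was analysed from the gene counts that the authors deposited, which are whole and not normalized. Per the submitters' processing notes, the tools were TopHat, DESeq, bcl2fastq and CASAVA 1.8 and the genome was rn4, with no roles stated. Which counter, annotation, strand setting and rule for multiply matching reads were used is not given in the sources used here.

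Symbols came from a RefSeq gene table of assembly GRCr8, used for names and neighbours only: 16671 of 16832 identifiers matched. The filterByExpr rule removed 6257 genes. Each comparison was tested by the robust quasi-likelihood F test of edgeR (version 4.0.16, under R 4.3.3, TMM scaling) on the 15 libraries together, with a coefficient per group, and p-values were adjusted over 10575 genes by the Benjamini-Hochberg method (threshold 0.05). The standard error is the log2 ratio divided by the square root of F. Correlations used log2 CPM with a prior count of 2, for genes with a mean of at least 20 counts. The share intervals are exact binomial.

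The members and gene lists were chosen with earlier results of these data known. Named genes are the members, list genes, chromosomal neighbours, the 5 genes most like each member and genes at adjacent ranks. Marker lists were summed, and 1 of them is not reported here: sustentacular and basal markers gave 12.1 to 17.2 CPM, glial 9.84 to 16.7 and leukocyte markers 3.85 to 7.57. Alternatives were DESeq2 1.42.0, limma-voom (limma 3.58.1), other scalings, filters and sets of libraries, a replicate block, a term for heart transcripts, thinning and leaving out each library. The tests were checked on simulated data.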

Additional observations from a re-analysis of the deposited data

How the results depend on the processing

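Over 12 alternative settings and the fits that leave out 1 library, Mt1 and Mtf1 kept their direction where called and their side of the threshold in all 126 values each, and Mt2A in 120 of 126. The 6 others were the ratio of Mt2A at 12 h against 6 h, which missed the threshold with the heart transcript term (0.50) and without 5 of the 6 libraries (0.44 to 0.56 over all 6); fewer libraries were in those fits, and for the heart term, which 6 h library 1 alone separates from the control group, the cause was not tested. Library totals alone gave the lowest ratios to control for both metallothioneins, 3.29 for Mt1 and 2.18 for Mt2A under the 24 h label. Counts of called genes moved by more than 1.5 times from 103 at 12 h against 6 h to 180 with DESeq2, 223 with the 6 libraries alone, 223 with the replicate block and 51 with the heart term. At 12 h against control they moved from 669 to 1165 with the replicate block and 50 with the heart term. With the heart term they moved from 1819 to 933 at 6 h, from 6449 to 3880 under the 24 h label and from 6402 to 3898 under the 200 µM label. Without 1 library the counts were 1026 to 1776 at 6 h against control, 271 to 639 at 12 h against control and 50 to 93 at 12 h against 6 h, lowest without control library 1, 12 h library 1 and 6 h library 1. Deviations of same-numbered libraries had correlations across genes of -0.083 to 0.393, and in no comparison did all 3 pass 0.1. By that rule the main fit did not read the numbers as pairs. Libraries numbered 2 had the highest correlation (0.19 to 0.393) in every comparison but 200 µM against 100 µM at 6 h. There they had 0.075, against 0.131 for those numbered 1. Over all comparisons the libraries numbered 1 and 3 had -0.083 to 0.173. The close pairs of the 24 h and 200 µM labels cross the numbers 1 and 3. What the numbers stand for is not stated. With the replicate block the median standard error at 6 h against control was 0.08 against 0.093, and 2564 genes were called against 1819. The block changed no call on Mt1, Mt2A or Mtf1. The share of counts held by Mt1 and Mt2A on the TMM scale was 0.261% at 6 h, 0.103% under the 24 h label and 0.105% under the 200 µM label. Depth limits Mt3 and Mt4, which stayed under the floor of 3 counts in every library.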
